A study of Homo sapiens with 20 samples.

Results

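The genes described here are 39 interferon-stimulated antiviral genes, a set that reaches from the 2'-5' oligoadenylate synthetases (OAS) and the MX proteins to the IFI, IFIT and IFITM families, the ISG15 system and the interferon regulatory factors. They were measured in the human melanoma cell line WM793 and in 4 lines derived from it. A gene entered by its symbol: every array row whose platform annotation names a member was taken, and the row of highest mean stood for a gene with several. A row was found for 38 of the 39 genes, and STAT2 was not analysed here. IFITM2 and IFITM3 share a row, so the 38 genes give 37 rows, out of 18384 features tested and 14411 genes with a row of their own. The rows for IFITM2 and IFITM3, for USP18 (shared with USP41P) and for GBP1 (shared with GBP3) cannot be given to a single gene, and their values are uncertain for that reason.

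WM793 is an established line from a vertical growth phase melanoma, the stage at which the tumour grows down into the dermis. The series looks for an expression signature of NME1, a nucleoside diphosphate kinase that suppresses metastasis. Parent is WM793 itself. NME1-wild-type carries an overexpression construct of the unaltered protein, and NME1-E5A, NME1-K12Q and NME1-P96S carry constructs with the substitution in their name. All 5 lines share the WM793 background and the same culture, 3 days in Tu2% medium. Total RNA was labelled with biotin and hybridised to an Affymetrix exon array. Each line has 4 arrays, which the submitters term technical replicates, and there is a single line per construct. The p-values below therefore cover the spread between arrays and not that between separate lines of a construct.

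Type I interferon binds its receptor, IFNAR1 with IFNAR2, and activates the kinases JAK1 and TYK2. Downstream of these kinases the complex ISGF3, which holds IRF9, binds a DNA element, the interferon-stimulated response element (ISRE), in front of the genes described here. Their products block viruses at entry, at translation, in replication or at budding, and many tumour lines keep some of them on without added interferon. The labels' protocols name no interferon treatment.

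The promoters of the members were searched for the core of that element, because it is the sequence through which these genes are known to respond to interferon. The motif was GAAANNGAAA, on either strand, in the 250 bases before and the 50 bases after each gene's start in RefSeq (GRCh38.p14), and matches may overlap each other. A promoter was listed for 32 members, and OAS2, OASL, MX2, IFIT2, IFITM2, IRF7 and USP18 were not listed. The motif lay in 21 of the 32 (65.6%) and in 996 of 27305 promoters over all genes (3.65%). The stretches below are those of members whose values are given array by array, with the match in capitals and 8 bases on either side, each written in the direction of its gene. TTTC at both ends of the capitals means that the match is on the opposite strand.
IFI6, chr1:27672331-27672356, minus strand: agagagggGAAAATGAAActctgcag
IFI6, chr1:27672290-27672315, minus strand: agagagggGAAAATGAAActgcagag
IFI6, chr1:27672268-27672293, minus strand: agagtgcaGAAATAGAAActccgaca
IFI44L, chr1:78620276-78620301, plus strand: ctagtgagGAAAAAGAAAgttagtgg
IFI44L, chr1:78620367-78620392, plus strand: ctagtgagGAAAAAGAAAgttagtgg
MX1, chr21:41420561-41420586, plus strand: gcagaaatGAAACCGAAActgaattg
OAS3, chr12:112938323-112938348, plus strand: aaagaaacGAAACTGAAAgcagggaa
OAS3, chr12:112938454-112938479, plus strand: ccgggcggGAAAACGAAAccagaaat
EPSTI1, chr13:42992274-42992299, minus strand: gattctgaGAAACCGAAActcagctg
IFI27, chr14:94110620-94110645, plus strand: gtctgcagTTTCGGTTTCctggaaaa
IFI27, chr14:94110633-94110658, plus strand: gtttcctgGAAAATGAAAcctatctc
IFI44, chr1:78649763-78649788, plus strand: acactgagTTTCAGTTTCctttctct
IFIT1, chr10:89392499-89392524, plus strand: agctttagTTTCACTTTCccctttcg
IFIT1, chr10:89392512-89392537, plus strand: ctttccccTTTCGGTTTCcctaggtt
IFI6 has 3 matches before its start, and the 2 farther from it hold the same 10 bases. The matches of IFI44L sit in a repeated stretch, so both printed sequences are identical. In MX1 the match lies after the start. The promoter windows of OAS1, RSAD2, XAF1 and PARP9 hold no match, which says only that these letters are not in them.

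The arrays were comparable in level, with medians from 6.27 to 6.50 (log2), and differed more in spread, with interquartile ranges from 2.19 to 3.16. The narrowest were replicate 2 of Parent (2.19), replicate 3 of NME1-P96S (2.33) and replicate 2 of NME1-K12Q (2.46). The row that holds NME1, shared with the NME1-NME2 readthrough, had means of 9.53 in Parent and 9.75 to 9.81 in the 4 NME1 lines, and none of these differences passed (adjusted p at least 0.850, limma with Benjamini-Hochberg adjustment). Of the melanocyte lineage markers, SOX10 had means of 9.34 to 9.53 and S100B of 8.22 to 8.91. The pigment cell antigens MLANA (3.55 to 3.96) and PMEL (4.63 to 4.86) stood lower. Among the measured leukocyte markers PTPRC was the lowest by level (3.25 to 3.34) and NKG7 the highest (5.98 to 6.29). For plasmacytoid dendritic cells the highest was TCF4 (8.02 to 8.31). The other measured markers of these cells stood lower: CLEC4C (4.11 to 4.32), IL3RA (4.61 to 4.76) and LILRA4 (4.68 to 5.00). COL1A1 was the highest for fibroblasts (6.65 to 6.98) and KDR for endothelial cells (5.25 to 5.82). No detection calls came with the values, so a low value does not show that a gene is off. No measured marker of melanocytes, leukocytes, plasmacytoid dendritic cells, fibroblasts or endothelial cells passed in any of the 10 comparisons.

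The lines were compared in all 10 pairs, and a gene was called at an adjusted p under 0.05 together with a fold of at least 1.5. Members were called in 3 comparisons, each with NME1-P96S as the lower line. NME1-P96S was lower than Parent in OAS1 (1 of 37 rows, against 0.103% of all features called in either direction and 0.0544% called lower). Against NME1-wild-type it was lower in OAS1 and IFI6 (2 of 37 rows, against 0.201% and 0.131%). The largest count was against NME1-K12Q, where OAS1, OAS2, MX1, IFI6 and IFI44L were lower (5 of 37 rows, against 0.277% and 0.174%). No member was called higher in NME1-P96S. The 4 comparisons of NME1-P96S share its 4 arrays, so these counts are not independent of each other. With only the 2 lines compared in the fit, or with limma's treat testing against a 1.5-fold change, 0 members were called in each of them. Both alternatives that deal with array spread, the interquartile range as a covariate and the fit without the 3 arrays of narrowest spread, called OAS2 and IFI44L against NME1-wild-type and OAS1 and IFI44L against NME1-E5A in addition.

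In the remaining 7 comparisons limma called 0 members. The background was 0.0326% for NME1-wild-type against Parent, 0.218% for NME1-E5A against Parent, 0.00544% for NME1-K12Q against Parent, 0.207% for NME1-E5A against NME1-wild-type, 0.0381% for NME1-K12Q against NME1-wild-type, 0.169% for NME1-K12Q against NME1-E5A and 0.239% for NME1-P96S against NME1-E5A. At an unadjusted p under 0.05, NME1-P96S against NME1-E5A had 7 lower members (2.06% of all features). NME1-K12Q against NME1-E5A had 4 higher members (1.33%), which were OAS2, MX1, IFI6 and EPSTI1. On that measure 2 members, IFI6 and MX1, were higher in NME1-K12Q than in Parent (0.631%), and HERC5 was lower in NME1-E5A than in NME1-wild-type (1.08%). The count was 0 for NME1-wild-type against Parent (1.38% in either direction), NME1-E5A against Parent (2.98%) and NME1-K12Q against NME1-wild-type (1.29%). A p that misses the threshold does not show that the lines had equal levels.

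**Figure D1:**
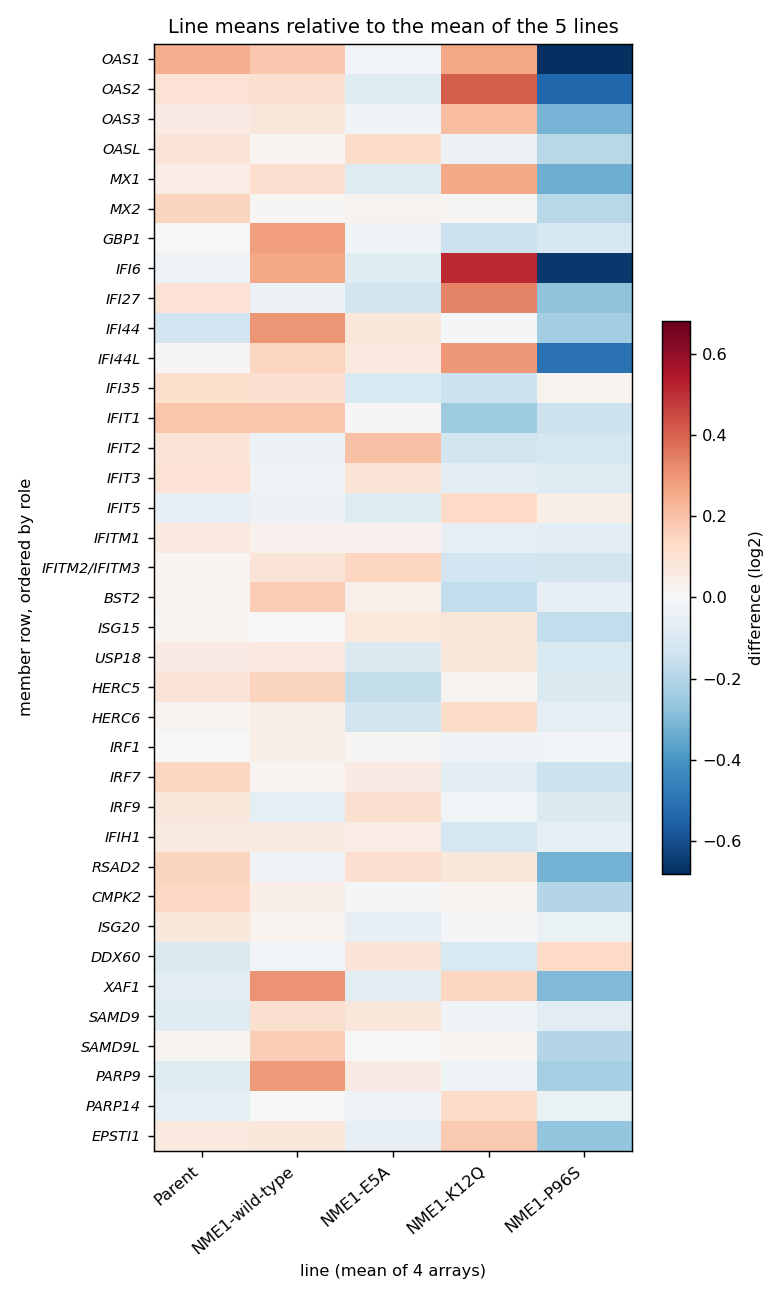
Difference of each line's mean (4 arrays) from the mean of the 5 lines, on the log2 scale, for the 37 member rows ordered by role (red above, blue below). The NME1-P96S column is blue for most rows and deepest for IFI6 and OAS1, and NME1-K12Q is highest for IFI6.

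OAS1, OAS2 and OAS3 make 2'-5'-linked oligoadenylates from ATP when they meet double-stranded RNA, and the product switches on the nuclease RNase L. OASL is a family member without that activity. The log2 values of OAS1 (row 3432438) were 6.08, 6.71, 5.97 and 5.83 in Parent, 6.33, 6.02, 5.88 and 6.11 in NME1-wild-type, 6.14, 5.65, 5.81 and 5.92 in NME1-E5A, 6.32, 6.21, 6.04 and 6.08 in NME1-K12Q, and 5.21, 4.91, 5.50 and 5.25 in NME1-P96S. All 4 NME1-P96S arrays lay below all 16 others, and Parent replicate 2 stood highest. Line means were 6.15 ± 0.388 (SD, n = 4) in Parent, 6.08 ± 0.188 in NME1-wild-type, 5.88 ± 0.203 in NME1-E5A, 6.16 ± 0.127 in NME1-K12Q and 5.22 ± 0.243 in NME1-P96S. NME1-P96S was lower than Parent by 1.90-fold (log2 difference -0.93, 95% interval -1.29 to -0.57, adjusted p 0.0329 by limma with Benjamini-Hochberg adjustment). The difference was -0.87 (-1.23 to -0.51, adjusted p 0.0373) against NME1-wild-type and -0.95 (-1.31 to -0.59, adjusted p 0.0149) against NME1-K12Q. Against NME1-E5A it was -0.66 and did not pass (-1.02 to -0.30, adjusted p 0.175), but it was called with the interquartile range as a covariate (-0.59, adjusted p 0.0160) and in the fit that left out the 3 narrowest arrays (-0.76, adjusted p 0.00728).

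The OAS1 call against Parent was lost without any of Parent replicates 1, 2 and 3, NME1-wild-type replicate 4, NME1-E5A replicates 3 and 4, NME1-K12Q replicate 3 or NME1-P96S replicates 1, 2 and 4 (adjusted p 0.0520 to 0.165). The difference stayed between -1.03 and -0.74 over all 20 single-array omissions, and the smallest was the one without Parent replicate 2. Against NME1-wild-type the call was kept only without Parent replicate 2, 3 or 4, NME1-E5A replicate 1 or 2, or NME1-P96S replicate 3. The difference over the 20 omissions ran from -0.96, without NME1-P96S replicate 3, to -0.76, without NME1-P96S replicate 2, where the call was lost (adjusted p 0.205). Without NME1-K12Q replicate 1 or NME1-P96S replicate 2 the call against NME1-K12Q was lost.

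OAS2 (row 3432514) stood at 5.39, 5.45, 5.29 and 5.35 in Parent, 5.10, 5.24, 5.38 and 5.78 in NME1-wild-type, 4.96, 5.19, 5.23 and 5.37 in NME1-E5A, 5.45, 5.60, 5.74 and 5.93 in NME1-K12Q, and 4.49, 4.57, 4.98 and 4.90 in NME1-P96S. NME1-P96S arrays were below every Parent, NME1-wild-type and NME1-K12Q array and overlapped NME1-E5A by 1 array, NME1-E5A replicate 1. The lowest NME1-K12Q array, at 5.4518, all but equalled the highest Parent array, at 5.4511. NME1-P96S was 1.92-fold lower than NME1-K12Q (log2 difference -0.94, -1.26 to -0.62, adjusted p 0.00633), and this call held in all 20 single-array omissions. The differences of -0.63 from Parent, -0.64 from NME1-wild-type and -0.45 from NME1-E5A did not pass (adjusted p 0.265, 0.133 and 0.585).

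For OAS3 the values were 6.65, 6.81, 6.57 and 6.55 in Parent, 6.49, 6.62, 6.72 and 6.85 in NME1-wild-type, 6.44, 6.61, 6.56 and 6.65 in NME1-E5A, 6.63, 6.95, 6.73 and 6.88 in NME1-K12Q, and 6.10, 6.22, 6.46 and 6.31 in NME1-P96S. The NME1-P96S arrays were below every Parent, NME1-wild-type and NME1-K12Q array, and 1 of them overlapped NME1-E5A. None of the differences was called, and the one nearest to it was -0.52 (SE 0.115) against NME1-K12Q, at an adjusted p of 0.0547 and 1.44-fold. OASL means ran from 5.16 in NME1-P96S to 5.47 in NME1-E5A, with an SD of 0.500 within NME1-P96S, and no comparison was called.

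MX1 is a dynamin-like GTPase that assembles around viral nucleocapsids, and MX2 is its relative at the nuclear pore. MX1 (row 3922100) had log2 values of 6.38, 6.29, 6.07 and 6.19 in Parent, 6.35, 6.16, 6.34 and 6.33 in NME1-wild-type, 6.15, 6.07, 6.14 and 6.02 in NME1-E5A, 6.35, 6.43, 6.49 and 6.50 in NME1-K12Q, and 5.93, 5.88, 5.75 and 5.85 in NME1-P96S. It was the member row with the smallest spread within lines (SD 0.0885). NME1-P96S arrays were below the 16 others, and NME1-E5A arrays came next and were below those of NME1-wild-type. NME1-K12Q arrays were above those of NME1-E5A, and the lowest of them (6.3479) all but equalled the highest NME1-wild-type array (6.3469). Parent overlapped NME1-wild-type, NME1-E5A and NME1-K12Q. The difference of NME1-P96S from NME1-K12Q was -0.59 (-0.79 to -0.39, 1.51-fold, adjusted p 0.00633). That fold is just past the minimum: it fell short without NME1-K12Q replicate 3 (-0.57), NME1-K12Q replicate 4 (-0.57) or NME1-P96S replicate 3 (-0.56), where adjusted p was 0.0380, 0.0420 and 0.0132. Against NME1-wild-type the difference was -0.45 (adjusted p 0.0660), against Parent -0.38 (adjusted p 0.352) and against NME1-E5A -0.25 (adjusted p 0.869).

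MX2 means lay between 4.86 in NME1-P96S and 5.19 in Parent, and Parent replicate 2, at 5.75, stood above every other MX2 array. GBP1 is a guanylate-binding GTPase that answers chiefly to interferon gamma. Its shared row had means from 6.90 in NME1-K12Q to 7.33 in NME1-wild-type. Neither row was called in any comparison.

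**Figure D2:**
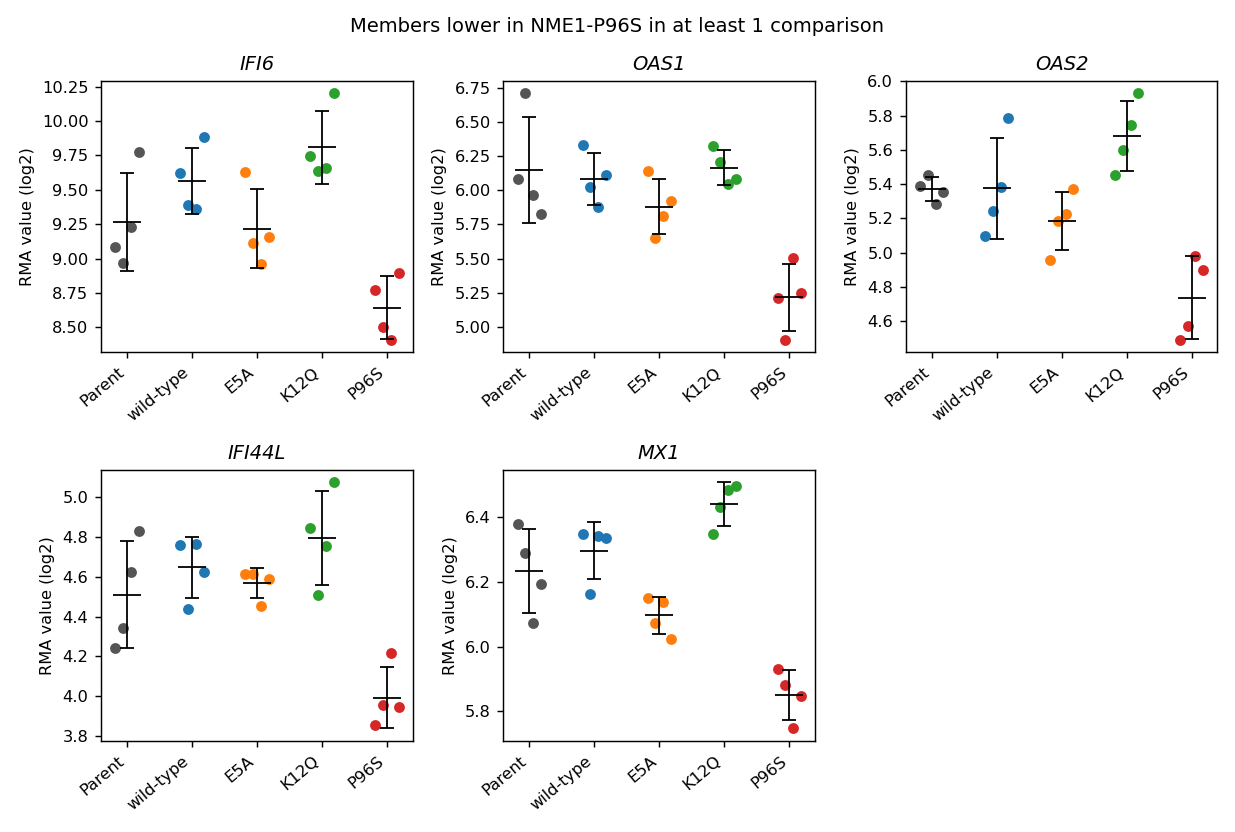
RMA values (log2) on each array for the 5 members called in at least 1 comparison, by line, with the mean and SD of 4 arrays as horizontal line and bar. NME1-P96S is lowest in every panel, with no overlap with the other 16 arrays for IFI6, OAS1, IFI44L and MX1.

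The IFI genes are named for induction by interferon. IFI6 is a small protein of mitochondria and the endoplasmic reticulum that protects cells from death and limits flavivirus replication, and its promoter stretches are printed above. IFI6 (row 2403261) gave 9.08, 8.97, 9.23 and 9.78 in Parent, 9.62, 9.39, 9.36 and 9.88 in NME1-wild-type, 9.63, 9.12, 8.96 and 9.16 in NME1-E5A, 9.74, 9.63, 9.66 and 10.2 in NME1-K12Q, and 8.77, 8.50, 8.41 and 8.89 in NME1-P96S. NME1-P96S arrays were below the 16 others, while the NME1-K12Q arrays were above 3 of 4 Parent arrays and overlapped NME1-wild-type. The means were 9.26 ± 0.357 (SD, n = 4) in Parent, 9.56 ± 0.243 in NME1-wild-type, 9.22 ± 0.288 in NME1-E5A, 9.81 ± 0.266 in NME1-K12Q and 8.64 ± 0.226 in NME1-P96S. The span of 1.17 between the highest and the lowest line was the widest of the 37 rows, wider than that of 99.8% of all features. Relative to NME1-K12Q, IFI6 was 2.24-fold lower in NME1-P96S (log2 difference -1.17, -1.56 to -0.77, adjusted p 0.00633), and no single array ended this call. Relative to NME1-wild-type the difference was -0.92 (-1.32 to -0.52, 1.89-fold, adjusted p 0.0470). The differences of -0.62 from Parent and -0.57 from NME1-E5A did not pass (adjusted p 0.811 and 0.542).

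The IFI6 call against NME1-wild-type sat close to the threshold. It was kept only without Parent replicate 2, Parent replicate 4, NME1-E5A replicate 1 or NME1-K12Q replicate 4, and 16 of 20 single-array omissions ended it, with differences from -1.003 to -0.813. Centring each array on its median also ended it (-0.89, adjusted p 0.109).

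IFI44L and IFI44 are neighbouring paralogues that accumulate in interferon-treated cells. IFI44L (row 2343473) was measured at 4.24, 4.34, 4.63 and 4.83 in Parent, 4.76, 4.44, 4.77 and 4.62 in NME1-wild-type, 4.61, 4.61, 4.45 and 4.59 in NME1-E5A, 4.85, 4.51, 4.75 and 5.08 in NME1-K12Q, and 3.86, 3.96, 4.22 and 3.94 in NME1-P96S. Its NME1-P96S arrays were the 4 lowest of the 20, the highest of them at 4.22 beside the lowest Parent array at 4.24. The difference from NME1-K12Q was -0.80 (-1.10 to -0.50, 1.74-fold, adjusted p 0.0121). It was lost without NME1-K12Q replicate 1 or 4 or NME1-P96S replicate 1 or 4 (adjusted p 0.0502 to 0.0760) and after quantile normalisation (adjusted p 0.328). The differences of -0.65 from NME1-wild-type, -0.57 from NME1-E5A and -0.52 from Parent did not pass (adjusted p 0.0660, 0.141 and 0.579).

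IFI44, by contrast, had 5.41, 4.88, 5.01 and 5.81 in Parent, 6.16, 5.64, 5.55 and 5.49 in NME1-wild-type, 6.05, 5.37, 5.46 and 5.08 in NME1-E5A, 5.57, 4.80, 5.42 and 5.81 in NME1-K12Q, and 5.83, 5.44, 4.45 and 4.98 in NME1-P96S. The lines overlapped throughout, and NME1-P96S held both the third highest value and the lowest. No IFI44 comparison was called, and its difference in NME1-P96S was -0.10 (SE 0.284) from Parent and -0.54 from NME1-wild-type.

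IFI27 is a mitochondrial protein used as a blood marker of interferon activity. Its values were 4.94, 6.10, 5.25 and 4.90 in Parent, 5.44, 5.12, 5.09 and 5.00 in NME1-wild-type, 5.18, 4.75, 5.18 and 5.20 in NME1-E5A, 5.43, 5.90, 5.57 and 5.26 in NME1-K12Q, and 4.72, 4.46, 5.72 and 4.81 in NME1-P96S. The highest array of Parent was replicate 2 (6.10) and that of NME1-P96S was replicate 3 (5.72), the arrays with the narrowest spread of the 20. No IFI27 comparison was called; without the 3 arrays of narrowest spread the difference of NME1-P96S from NME1-K12Q was -0.76 (adjusted p 0.0246) in place of -0.61 (adjusted p 1.00). IFI35, a regulator of innate signalling, had means from 7.43 in NME1-K12Q to 7.70 in Parent, with no call.

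Of the IFIT proteins, IFIT1 and IFIT5 bind viral RNA by its 5' end. IFIT1, which holds back messages with an incompletely methylated cap, had 7.48, 6.83, 6.82 and 6.77 in Parent, 7.47, 7.05, 6.54 and 6.85 in NME1-wild-type, 7.31, 6.61, 6.67 and 6.59 in NME1-E5A, 6.92, 6.29, 6.38 and 6.57 in NME1-K12Q, and 7.15, 6.65, 6.10 and 6.67 in NME1-P96S. Replicate 1 was the highest array in every line, and the lines overlapped. NME1-K12Q, not NME1-P96S, had the lowest mean (6.54 against 6.64). In NME1-P96S the difference was -0.34 from Parent, -0.34 from NME1-wild-type, -0.15 from NME1-E5A and 0.10 from NME1-K12Q, and the other IFIT rows differed by -0.32 to 0.13 over the same 4 comparisons. IFIT5 was above 0 in 3 of the 4. No IFIT row was called in any comparison.

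IFITM proteins and BST2, called tetherin, act at membranes: the former block fusion of incoming virus, the latter holds budding virus on the cell. Line means were 4.29 to 4.42 for IFITM1, 8.52 to 8.79 for the shared IFITM2 and IFITM3 row and 6.89 to 7.23 for BST2. NME1-P96S differed from Parent by -0.15 to -0.08 over these 3 rows, and 0 of 3 were called.

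ISG15 is a ubiquitin-like protein, HERC5 attaches it to new proteins, HERC6 is a related ligase, and USP18 removes it and damps the interferon receptor. All 4 rows were below Parent, NME1-wild-type and NME1-K12Q in NME1-P96S, by -0.25 to -0.08. Against NME1-E5A only 2 of the 4 were lower, over a range of -0.239 to 0.067, and HERC5 and HERC6 were higher. In each of these comparisons 0 of 4 were called. The arrays of HERC5 in NME1-E5A were all below those of Parent and of NME1-wild-type, with a mean of 4.25 against 4.50 and 4.56 (difference from NME1-wild-type -0.31, SE 0.120, adjusted p 1.00).

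IRF7 drives interferon alpha transcription, IRF9 is the DNA-binding part of ISGF3, IRF1 answers mainly to interferon gamma, and IFIH1 (MDA5) senses long double-stranded RNA. IRF1 had the narrowest span of all member rows, 0.0659 between means of 7.21 and 7.28. IRF9 means ran from 6.99 in NME1-P96S to 7.20 in NME1-E5A, and IRF7 means from 6.63 in NME1-P96S to 6.93 in Parent. IFIH1 lay between 5.07 and 5.24. The 4 rows differed between NME1-P96S and Parent by -0.29 to -0.01, and 0 of 4 were called in any comparison.

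RSAD2 (viperin) makes a chain-terminating ribonucleotide from CTP, and its neighbour CMPK2 is a mitochondrial nucleotide kinase. RSAD2 stood at 5.02, 5.40, 4.79 and 4.29 in Parent, 4.75, 4.77, 4.58 and 4.69 in NME1-wild-type, 4.77, 4.79, 4.75 and 5.04 in NME1-E5A, 4.85, 5.28, 4.48 and 4.58 in NME1-K12Q, and 4.36, 4.17, 4.71 and 4.37 in NME1-P96S. Among the 4 lowest of the 20 values, 3 were NME1-P96S arrays, and all 4 were below the NME1-E5A arrays. Its differences in NME1-P96S were -0.48 from Parent (SE 0.196, adjusted p 0.850), -0.44 from NME1-E5A, -0.40 from NME1-K12Q and -0.30 from NME1-wild-type, none of them called. CMPK2 differed by -0.34 from Parent. ISG20, an exonuclease, had means of 6.38 to 6.51. DDX60, a helicase, was the only member whose highest mean was in NME1-P96S (5.37, against 5.13 to 5.32 in the other lines), with an SD of 0.563 there.

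Among the last members, XAF1 is a pro-apoptotic antagonist of XIAP. Its values were 6.97, 7.45, 6.74 and 6.41 in Parent, 7.24, 7.44, 7.11 and 7.33 in NME1-wild-type, 6.99, 6.79, 7.15 and 6.64 in NME1-E5A, 6.72, 7.47, 7.50 and 6.78 in NME1-K12Q, and 6.60, 5.82, 7.67 and 6.59 in NME1-P96S. NME1-P96S held both the highest (replicate 3) and the lowest (replicate 2) of the 20 values, so its mean of 6.67 had an SD of 0.761. Without the 3 arrays of narrowest spread, of which NME1-P96S replicate 3 is 1, its difference from NME1-wild-type was -0.94 (adjusted p 0.0418) in place of -0.61 (adjusted p 0.999).

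PARP9, an inactive ADP-ribosyltransferase that works with the ligase DTX3L in interferon signalling, had 7.50, 6.81, 7.90 and 8.24 in Parent, 8.05, 8.08, 7.83 and 7.98 in NME1-wild-type, 7.92, 7.75, 7.74 and 7.61 in NME1-E5A, 7.90, 7.25, 7.52 and 7.99 in NME1-K12Q, and 7.60, 7.72, 7.09 and 7.48 in NME1-P96S. NME1-P96S arrays were below those of NME1-wild-type and overlapped the other lines, and the difference from NME1-wild-type was -0.51 (SE 0.228, adjusted p 0.999). With array spread (interquartile range) as a covariate it was -0.64 (adjusted p 0.0253).

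EPSTI1, induced by interferon and by contact with stroma, had 4.72, 4.57, 4.38 and 4.46 in Parent, 4.50, 4.56, 4.50 and 4.62 in NME1-wild-type, 4.50, 4.54, 4.30 and 4.30 in NME1-E5A, 4.75, 4.58, 4.58 and 4.67 in NME1-K12Q, and 4.29, 4.30, 4.17 and 4.05 in NME1-P96S. NME1-P96S was below every Parent, NME1-wild-type and NME1-K12Q array and overlapped NME1-E5A. Its largest difference was -0.44 (SE 0.106) from NME1-K12Q, with an adjusted p of 0.0920 and a fold of 1.36. SAMD9, SAMD9L and PARP14, which restrict poxviruses or act in ADP-ribosylation, had spans of 0.192, 0.367 and 0.187 and no call.

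**Figure D3:**
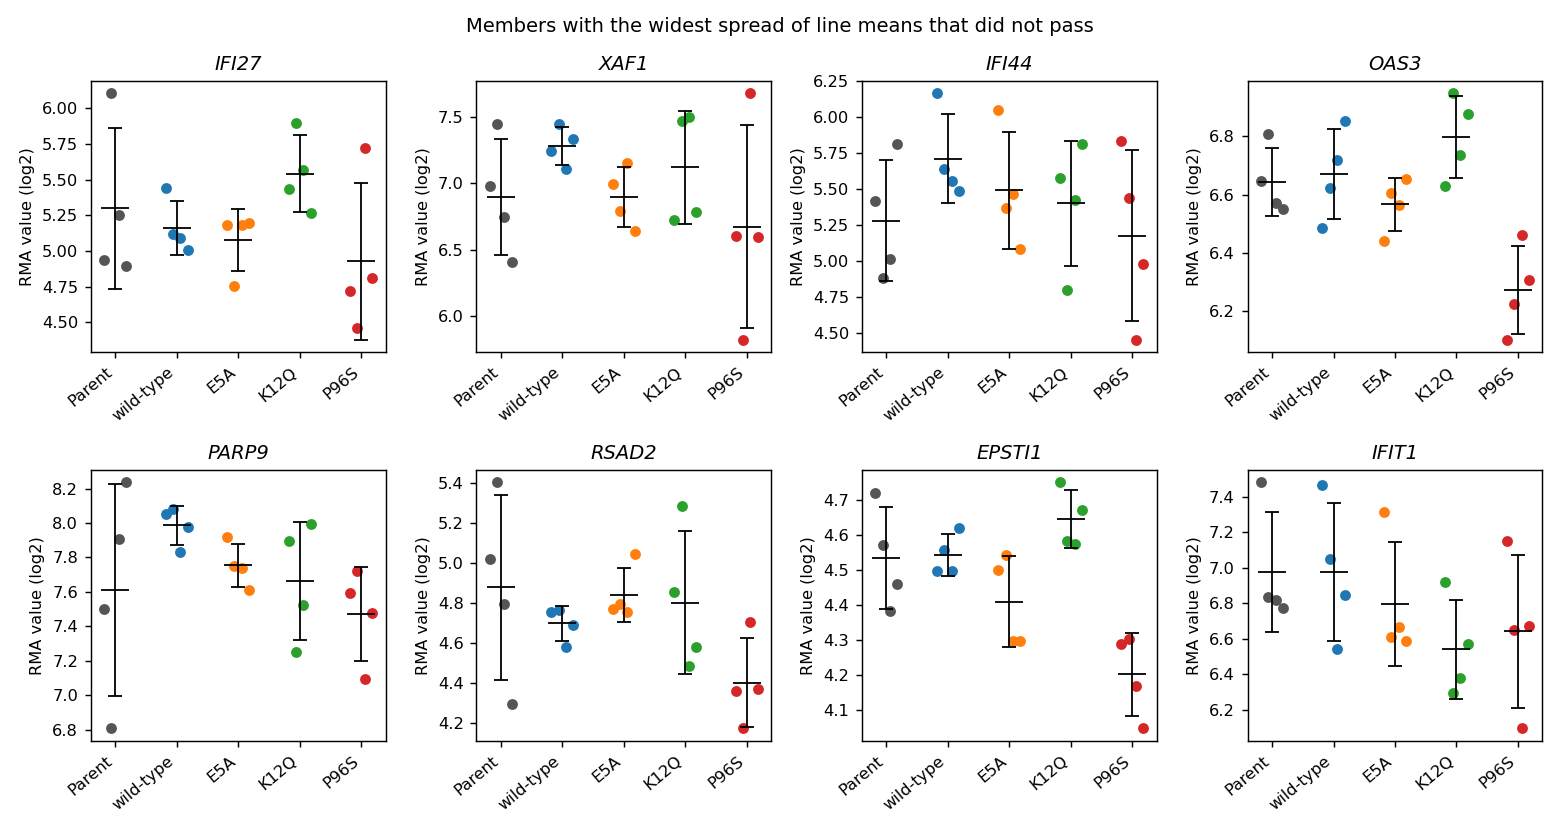
RMA values (log2) on each array for the 8 uncalled members of largest span between line means, by line, with the mean and SD of 4 arrays. OAS3 and EPSTI1 have their lowest mean in NME1-P96S with narrow spread, and their NME1-P96S arrays overlap those of NME1-E5A only. XAF1, IFI27 and IFI44 also have their lowest mean in NME1-P96S. Their NME1-P96S arrays, and those of IFIT1, overlap the arrays of every other line.

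Counting rows whose arrays did not overlap, without regard to size, NME1-P96S was below Parent in 7 of 37 member rows (0.669% of all features), below NME1-wild-type in 8 (0.914%), below NME1-E5A in 5 (1.7%) and below NME1-K12Q in 7 (1.22%). It was above in 0 rows each time. The members below Parent were OAS1, OAS2, OAS3, MX1, IFI6, IFI44L and EPSTI1, and the same 7 were below NME1-K12Q. PARP9 joined them against NME1-wild-type. Against NME1-E5A the 5 were OAS1, MX1, IFI6, IFI44L and RSAD2. OAS1, MX1, IFI6 and IFI44L were below all 16 other arrays, 10.8% of the member rows against 0.136% of all features. NME1-K12Q was above NME1-E5A in 5 rows (1.69% of all features), OAS2, MX1, IFI6, IFI27 and EPSTI1, and below it in 2 (1.85%), IFIT2 and the shared IFITM2 and IFITM3 row.

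The direction extended to members that were not called. The median difference of the 37 rows was -0.184 from Parent, with 33 rows below 0 (61.7% of all features), and -0.216 from NME1-wild-type, with 35 below 0 (61.3%). It was -0.197 from NME1-E5A, with 31 below 0 (58.7%), and -0.17 from NME1-K12Q, with 28 below 0 (56%). Over all features the same medians were -0.0636, -0.0439, -0.0311 and -0.0216. Between the other lines the member medians lay between -0.0794 and 0.00976. NME1-P96S had the lowest mean of the 5 lines in 22 rows (59.5%, against 35.3% of all features), and NME1-K12Q had the highest in 13 rows (35.1%, against 11.6%). NME1-wild-type had the highest mean in 10 rows (27%, against 19.2%), and Parent in 9 (24.3%, below its 37.4% of all features).

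**Figure D4:**
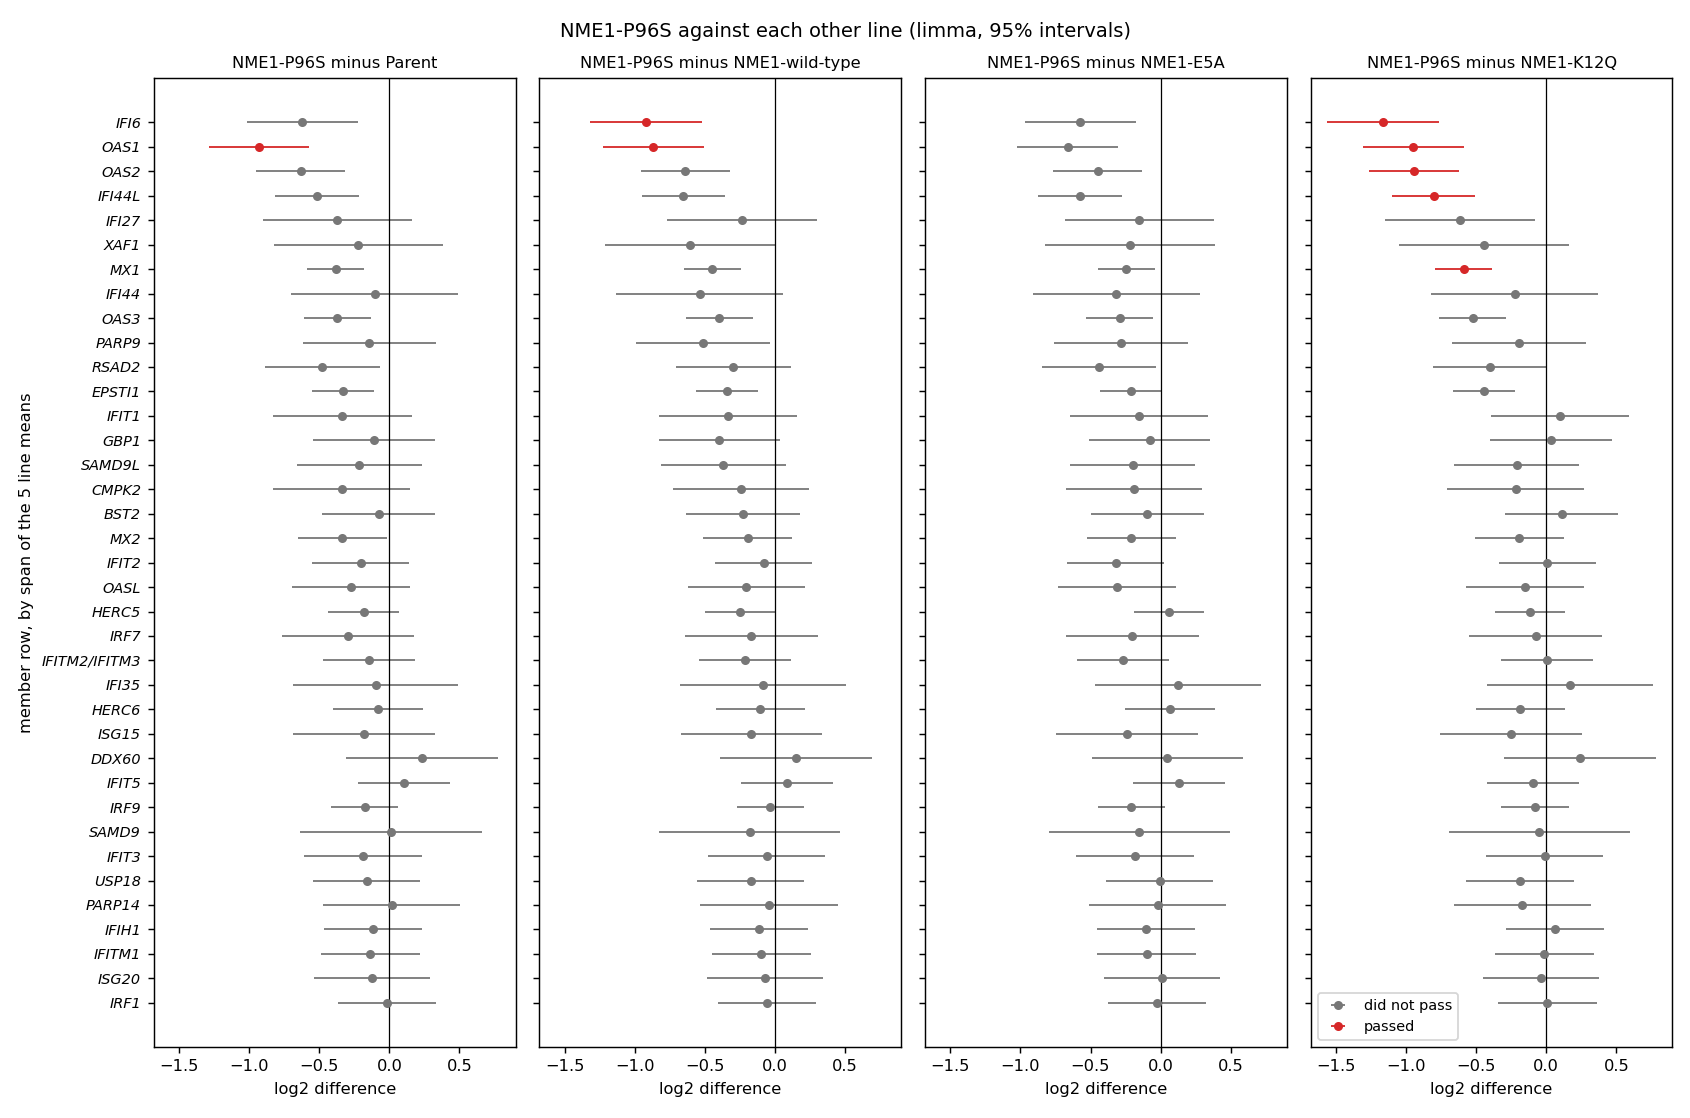
Log2 difference of NME1-P96S from each other line, with 95% intervals from limma, for the 37 member rows ordered by span of the line means; red marks rows that passed. Points lie mostly left of 0 in all panels, and the red ones are OAS1 in 3 panels, IFI6 in 2 panels, and OAS2, IFI44L and MX1 against NME1-K12Q.

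On single arrays, the median deviation of the member rows from their own means was -0.103, -0.208, -0.334 and -0.228 on the NME1-P96S arrays and between -0.0246 and 0.15 on the 16 others. The mean of these array medians was -0.218 ± 0.0949 (SD, n = 4) in NME1-P96S, 0.0224 ± 0.0264 in Parent, 0.0767 ± 0.0531 in NME1-wild-type, 0.0214 ± 0.0624 in NME1-E5A and 0.0438 ± 0.0721 in NME1-K12Q. Over all features the medians of the NME1-P96S arrays were -0.0833, -0.119, 0.085 and -0.0282. Thus 3 of the 4 arrays were below 0 for all features as well, by less than for the members, and replicate 3, lowest for the members, was above 0. The part of this shift in the members' values was not tested.

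**Figure D5:**
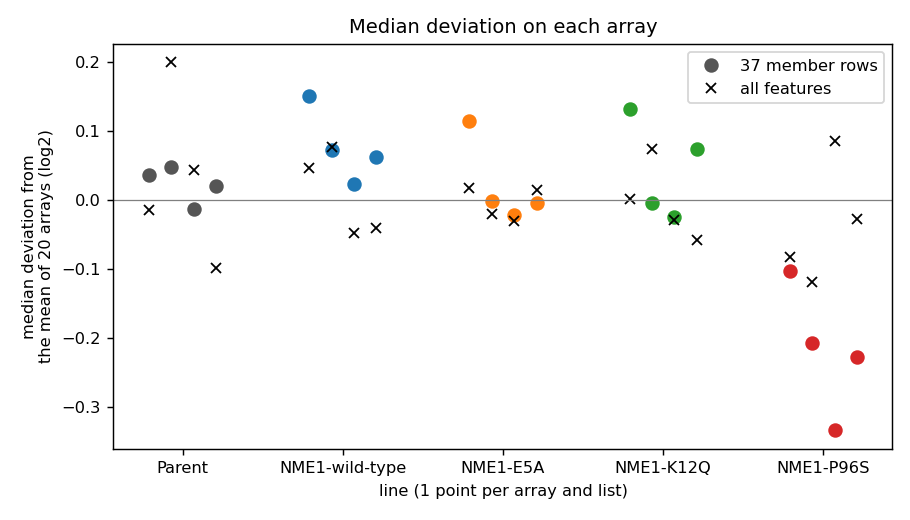
Median deviation (log2) from the 20-array mean on each array, for the 37 member rows (filled circles, coloured by line) and for all features (crosses). The 4 NME1-P96S circles lie between -0.334 and -0.103, below all others, while its crosses lie between -0.119 and 0.085.

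Pearson correlations across the 20 arrays describe how alike the members' values were. The 5 called members were low on the same 4 arrays, so their correlations over 20 arrays (0.618 to 0.839 over 10 pairs) restate those calls. Once line means were removed, 9 of the 10 pairs lay between -0.277 and 0.182, 3 of them below 0, and IFI6 with IFI44L was at 0.496. For OAS2 the nearest member was OAS3 (r = 0.94, and 0.81 once line means were removed), then MX1 (0.80, and 0.02 without line means). MX1 was nearest to EPSTI1 (0.86, and 0.41), IFI6 and IFI44L to each other (0.84, and 0.50), and OAS1 to MX1 (0.76, and 0.08). The next for OAS1 were OAS3 (0.75), RSAD2 (0.74), IFI27 (0.71) and EPSTI1 (0.71). For RSAD2 and IFI27 the correlation with OAS1 was 0.72 and 0.81 without line means.

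Several members are neighbours in RefSeq gene order. OAS1, OAS3 and OAS2 are adjacent, as are IFI44L and IFI44, MX2 and MX1, RSAD2 and CMPK2, SAMD9 and SAMD9L, HERC6 and HERC5, IFIT2 and IFIT3, and IFIT1 and IFIT5. Neighbours differed in how alike their values were. The r was 0.90 for SAMD9 with SAMD9L and 0.81 for RSAD2 with CMPK2. It was 0.35 for IFI44L with IFI44 and 0.28 for MX1 with MX2. Over all 666 member pairs the median r was 0.149, against 0.0315 for pairs drawn at random from all features. With line means removed, the median was 0.0371 for the member pairs and 0.0367 for the drawn pairs. Of the member pairs 74 were above 0.7, and the share of drawn pairs above 0.7 was not computed. High values were not particular to neighbours: SAMD9 with PARP14, which are not neighbours, had 0.92. SAMD9 and SAMD9L were lowest, and CMPK2 highest, on the 3 arrays of narrowest spread.

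The rest of the interferon pathway was read from 5 lists. For these lists and for the cell type markers, only rows that name a single gene were used. A listed gene on a shared row therefore counts as having no row, unlike the members, for which shared rows were kept. Of the ligands, 9 of 17 had a row and 0 were called in any comparison. IFNB1, the interferon made by most cell types, had line means of 2.87 to 3.16, above only 0.9% of features by level. Of receptors and signal transducers, 9 of 11 had a row and 0 were called. IFNAR1 means were 7.67 to 8.01, IFNAR2 6.22 to 6.46, JAK1 8.37 to 8.53 and TYK2 7.99 to 8.16, and NME1-P96S differed from Parent by 0.28, 0.24, 0.16 and 0.01 in these genes (adjusted p at least 0.850). In nucleic acid sensing, 16 of 20 listed symbols had a row and 0 were called. The 20 include older symbols of RIGI, STING1 and CGAS, which were measured under their current symbols. IRF3, which switches on IFNB1, had means of 7.62 to 7.74. Among negative regulators such as SOCS1 the figures were 8 of 10 and 0.

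Other interferon-stimulated effectors had 36 of 45 genes measured, and CXCL11, a chemokine that recruits T cells through CXCR3, was the only one called. Its means were 6.21 ± 0.0937 (SD, n = 4) in Parent, 7.13 ± 0.708 in NME1-wild-type, 6.001 ± 0.603 in NME1-E5A, 4.64 ± 0.408 in NME1-K12Q and 5.58 ± 0.472 in NME1-P96S. The log2 difference from NME1-wild-type was -2.49 in NME1-K12Q (SE 0.320, adjusted p 0.000915) and -1.55 in NME1-P96S (SE 0.320, adjusted p 0.0470). NME1-K12Q, which had the highest mean of OAS1, OAS2, MX1, IFI6 and IFI44L, thus had the lowest mean of CXCL11. In NME1-P96S the median difference of these 36 effectors from Parent was -0.0616. That is close to the -0.0636 over all features, while it was -0.184 for the 37 member rows.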

How the data were processed

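Total RNA of 5 WM793 lines was measured on 20 exon arrays, 4 per line. Titles gave the line and the replicate number. The authors deposited log2 values made with RMA, per the series' design text. The submitters' processing notes name RMA and limma, with no version. The sources used here give no genome build, annotation release or RMA software. Of 18708 rows, 17608 were listed in the platform annotation (14735 with 1 symbol, 2873 with several). Leaving out 324 second rows of a gene gave 18384 features. RMA compresses low values, so folds of dim rows may be understated.

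Means of the 5 lines were fitted over all 20 arrays with limma 3.58.1 in R 4.3.3 (lmFit and eBayes, 15 residual degrees of freedom). All 10 pairs were compared with 2-sided tests, Benjamini-Hochberg adjusted over all features within a comparison. A call needed both an adjusted p under 0.05 and a 1.5-fold difference. The procedure was tested on simulated data. The members, pathway lists and markers were chosen with earlier results of these data known, and no test was made over a list as a whole. Array values are printed for every called member and the 8 uncalled members of largest span. Of the pathway lists, called genes and IFNB1, IFNAR1, IFNAR2, JAK1, TYK2 and IRF3 are named. Alternatives covered normalisation, a filter on low values, the arrays and lines in the fit, array spread, a replicate block, the call rule and each array left out. No sequencing depth applies to arrays; their number limits precision.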

Additional observations from a re-analysis of the deposited data

Results flagged for a closer look

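Among the 185 groups of 4 arrays (37 member rows in 5 lines), 11 held an array far from the other 3 (5.95%), where chance gives about 1 in 20. MX2 in Parent replicate 2 stood at 5.75, against 4.97 to 5.03 on the other Parent arrays, and MX2 in NME1-K12Q replicate 4 at 4.95, against 5.07 to 5.09. IFIT1 was high in Parent replicate 1 (7.48, against 6.77 to 6.83) and in NME1-E5A replicate 1 (7.31, against 6.59 to 6.67), and the shared IFITM2 and IFITM3 row in NME1-E5A replicate 1 was at 9.2, against 8.63 to 8.67. RSAD2 was high in NME1-E5A replicate 4 (5.04, against 4.75 to 4.79), and HERC5 in Parent replicate 4 (4.8, against 4.38 to 4.41). Low arrays were MX1 in NME1-wild-type replicate 2 (6.16, against 6.33 to 6.35), IFI27 in NME1-E5A replicate 2 (4.75, against 5.18 to 5.20), IFI44L in NME1-E5A replicate 3 (4.45, against 4.59 to 4.61) and IFIT5 in NME1-wild-type replicate 2 (6.6, against 6.93 to 6.98). None of the 11 lies in NME1-P96S.

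The difference between 2 NME1 lines equals the difference of their effects against Parent, and 7 such differences passed limma's test at the adjusted threshold. NME1-P96S was below NME1-wild-type by a log2 difference of -0.87 in OAS1 and -0.92 in IFI6. It was below NME1-K12Q by -0.95 in OAS1, -0.94 in OAS2, -0.59 in MX1, -1.17 in IFI6 and -0.80 in IFI44L. In each of the 7 all 4 NME1-P96S arrays were below the 4 of the other line.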

How the results depend on the processing

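With only the 2 lines compared in the fit, and with treat against a 1.5-fold change, 0 members were called in every comparison, in place of 1 for NME1-P96S against Parent, 2 against NME1-wild-type and 5 against NME1-K12Q. With each array centred on its median, NME1-P96S against NME1-wild-type had 1. With the interquartile range as a covariate the counts were 2 (OAS1, IFI6) against Parent, 5 (OAS1, OAS2, IFI6, IFI44L, PARP9) against NME1-wild-type and 3 (OAS1, IFI6, IFI44L) against NME1-E5A. Without the 3 arrays of narrowest spread they were 5 (OAS1, OAS2, IFI6, IFI44L, XAF1) against NME1-wild-type and 2 (OAS1, IFI44L) against NME1-E5A; IFI27 was called and MX1 was not against NME1-K12Q. Whether equal replicate numbers pair the arrays was unclear. Deviations from the line means of same-numbered arrays had a median correlation of 0.236 (-0.849 to 0.81) and were above 0.1 in 25 of 40 pairs. That held for all 10 pairs of replicates 1 (0.105 to 0.601) but for 4, 5 and 6 of 10 in replicates 2, 3 and 4, and 11 of 20 arrays correlated best with their own number in another line. With the replicate block the counts were 1 (OAS2; OAS1 at an adjusted p of 0.0590) against Parent, 3 (OAS2, IFI6, IFI44L; OAS1 at 0.0512) against NME1-wild-type and 5 against NME1-K12Q.

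Leaving out each array in turn gave 0 to 1 calls for NME1-P96S against Parent, 0 to 3 against NME1-wild-type, 0 to 1 against NME1-E5A and 3 to 5 against NME1-K12Q. In the other 6 comparisons every alternative gave 0. Over the same omissions the member median ran from -0.249 to -0.153 for NME1-P96S against Parent, from -0.271 to -0.171 against NME1-wild-type, from -0.216 to -0.147 against NME1-E5A and from -0.186 to -0.0899 against NME1-K12Q, the last without NME1-P96S replicate 3. For NME1-K12Q against NME1-E5A it ran from -0.0669 to 0.0652, the latter without NME1-E5A replicate 1. IFI44L could not be tested with the lowest 25% of features left out, since its row is among them. No called member changed direction under any alternative. With 4 technical arrays per line and 1 line per construct, nothing here bears on another line with the same construct.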
